A study of Homo sapiens with 24 samples.

Results

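The genes described here encode subunits of RNA polymerase II (Pol II), the enzyme that transcribes messenger RNA. They are POLR2A, POLR2B, POLR2C, POLR2D, POLR2E, POLR2F, POLR2G, POLR2H, POLR2I and POLR2K, which are 10 of the 26475 gene symbols in the count tables. They were chosen by symbol, and the starting point was that POLR2A had risen with ABBV-744, so the values of POLR2A with ABBV-744 against DMSO are a description without a test. RNA of HepG2 cells, a line from a human liver cancer, was sequenced in 24 libraries that form 8 groups of 3. The groups are DMSO (the vehicle), ABBV-075 at 50 nM, ABBV-744 at 50 nM, ABBV-744 at 500 nM, interferon gamma (IFNg) alone, and IFNg together with each of these 3 inhibitor treatments. The treatment times and the dose of IFNg are not given in the sources used here, and all groups are of a single cell line. The labels do not say that the libraries of a group came from separate cultures, so that p-values measure the spread between these libraries, which may be technical.

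Pol II is assembled from a large catalytic subunit with a repetitive C-terminal domain (CTD), a partner that completes the active site, and smaller subunits that hold the core together, form a stalk or are shared with RNA polymerases I and III. ABBV-075 and ABBV-744 are inhibitors of the BET proteins, which bind acetylated chromatin and help to release paused Pol II into elongation. ABBV-075 binds both bromodomains of the BET proteins, whereas ABBV-744 is selective for the second one. IFNg is a cytokine of the immune response.

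The promoters of POLR2A, POLR2B and POLR2H are shown because POLR2A and POLR2B had the widest ranges of group means among the 10 genes and POLR2H had the pattern most like that of POLR2A. The set of promoters used here held none for POLR2G, POLR2I, POLR2K and POLR2J, and those of POLR2C, POLR2D, POLR2E, POLR2F and POLR2L are not shown. Each is the stretch of 250 bases before the annotated start, from RefSeq (GRCh38.p14), written 5′ to 3′ on the strand of the gene. Capitals mark the GC box, GGGCGG or its reverse complement.
POLR2A (chr17:7484116-7484365, + strand): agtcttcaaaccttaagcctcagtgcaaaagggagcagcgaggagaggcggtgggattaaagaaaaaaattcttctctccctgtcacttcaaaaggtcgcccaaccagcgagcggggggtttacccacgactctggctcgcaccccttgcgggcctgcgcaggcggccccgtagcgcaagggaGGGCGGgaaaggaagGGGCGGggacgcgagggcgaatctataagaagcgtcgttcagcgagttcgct
POLR2B (chr4:56978646-56978895, + strand): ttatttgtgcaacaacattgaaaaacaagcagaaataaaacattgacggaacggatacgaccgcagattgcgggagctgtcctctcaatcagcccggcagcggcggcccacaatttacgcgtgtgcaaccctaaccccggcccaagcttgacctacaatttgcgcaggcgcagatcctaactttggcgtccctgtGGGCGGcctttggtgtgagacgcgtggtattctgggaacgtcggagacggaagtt
POLR2H (chr3:184361460-184361709, + strand): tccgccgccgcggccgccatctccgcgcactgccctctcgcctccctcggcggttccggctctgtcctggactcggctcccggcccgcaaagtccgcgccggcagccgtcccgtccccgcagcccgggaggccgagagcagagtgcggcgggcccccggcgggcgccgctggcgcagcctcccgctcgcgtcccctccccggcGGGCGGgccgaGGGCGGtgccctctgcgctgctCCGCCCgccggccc
The GC box occurred 2 times in the POLR2A promoter, 1 time in that of POLR2B and 3 times in that of POLR2H. In the promoters not shown it occurred 0 times for POLR2C and POLR2F, 1 time for POLR2D and POLR2E and 2 times for POLR2L. Of 35116 promoters of this length, 42.6% hold it on either strand. The CCAAT box was found in none of the 3 windows shown on either strand and in 32.0% of all promoters. The TATA box, searched as TATAAA, was likewise in none of the 3 and in 10.7% of all promoters, and the E-box, searched as CACGTG, in none of the 3 and in 6.35%. The GC content of the windows was 59.6% for POLR2A, 54.0% for POLR2B and 82.0% for POLR2H, with a median of 58.0% over all promoters.

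The libraries held 2978982 to 4304103 counts on genes (median 3462418.5), which were 11.95% to 16.8% of the reads in the files, and 2703 to 3846 of these counts were on the 10 genes. HEXIM1, a gene that BET inhibitors induce, lay at 50.6 to 56.8 CPM (counts scaled to library size, after TMM normalisation) in DMSO and at 137.0 to 151.9 with ABBV-075. With ABBV-744 it lay at 60.3 to 68.0 at 50 nM and at 84.3 to 93.9 at 500 nM, and with IFNg and ABBV-744 at 50 nM its 38.7 to 55.5 CPM overlapped the 44.8 to 49.3 of IFNg alone. IRF1, an IFNg target, was at 10.9 to 19.1 CPM in the 12 libraries without IFNg and at 195.1 to 252.3 in the 12 with it. The liver markers ALB, AFP, APOA1, APOB, TF, SERPINA1, TTR and FGB were all detected in every library (lowest value 33.0 CPM, for FGB). Of 8 markers of other cell types, PTPRC, CD3E, COL1A2, LUM and MS4A1 had no count, PECAM1 and COL1A1 had at most 5 counts in a library, and CD68 lay at 7.42 to 22.7 CPM. The balance between genes of high and low GC content (at least 55% and at most 45% GC in the longest transcript) differed between libraries. Relative to DMSO, the median log2 level of the former minus that of the latter ran from -0.74 in an ABBV-075 library to 0.75 in an ABBV-744 50 nM library. Results of the 10 genes are therefore also given after a correction for GC content where this correction ended or turned them, and no such correction was made for the other genes and lists described at the end.

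**Figure D1:**
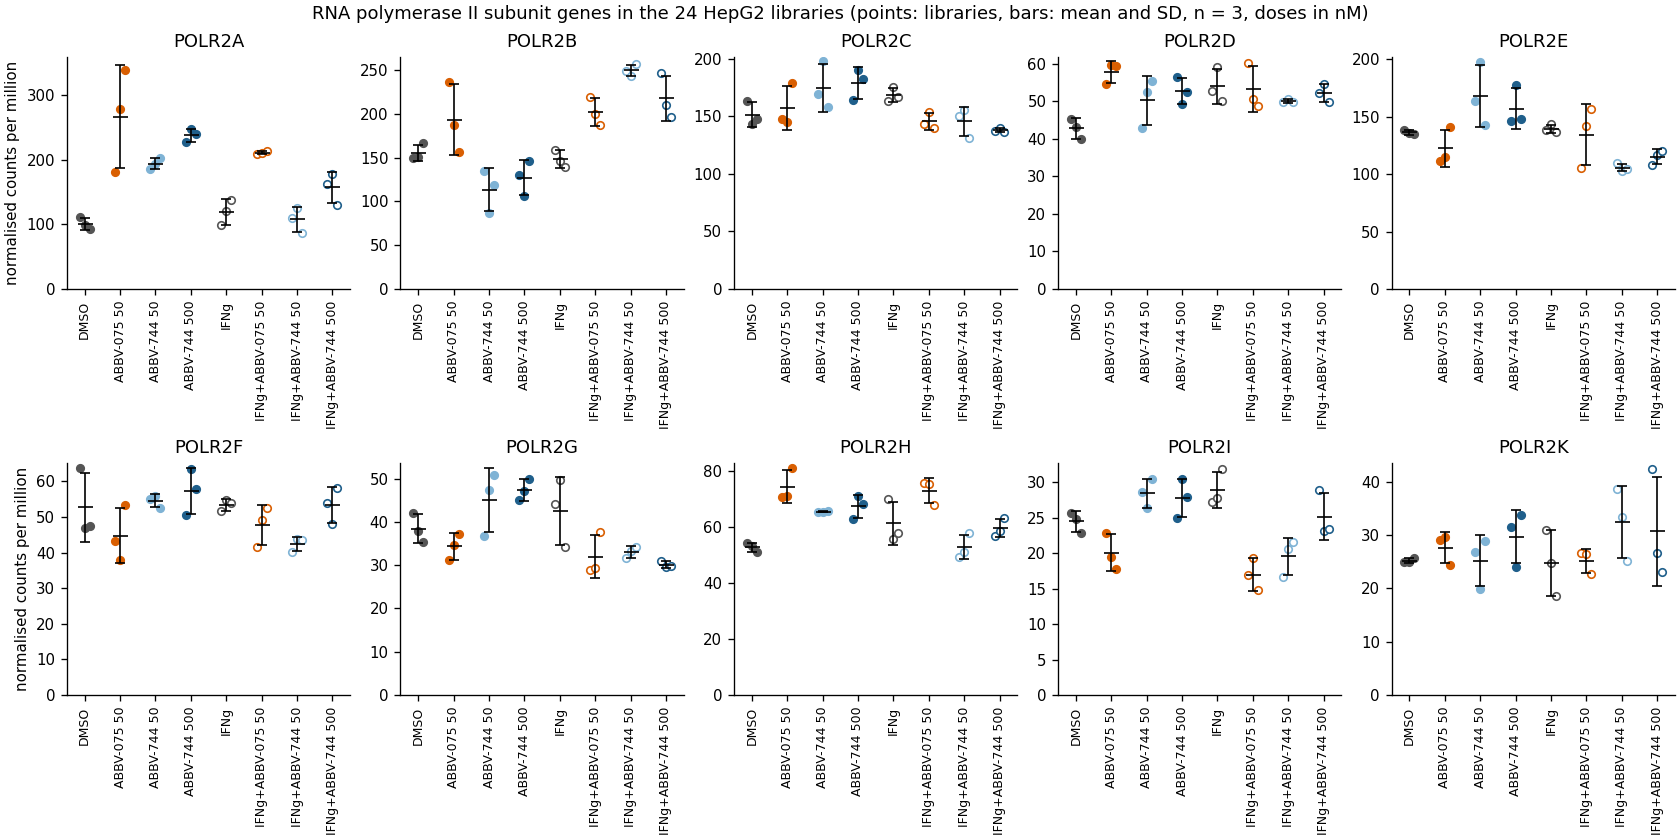
Level of each of the 10 subunit genes in normalised CPM (vertical axis, from 0) in the 24 libraries, by treatment group (horizontal axis, doses in nM). Points are libraries, bars are the mean and SD of 3, and open points are groups with IFNg. POLR2A reached its highest group mean with ABBV-075 (266.1 CPM) and was at 100.9 CPM in DMSO, whereas POLR2B was highest with IFNg and ABBV-744 at 50 nM (249.8 CPM).

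Compared per length of the canonical transcript in GENCODE 44, the 10 genes differed widely in DMSO cells. POLR2C, which forms the assembly platform of the core with POLR2J, had 85.7 ± 6.16 CPM per kb (SD, n = 3, as for all values with ±), and POLR2D, one of the stalk subunits, had 8.48 ± 0.547. The catalytic subunit POLR2A had 16.0 ± 1.48 CPM per kb and its partner POLR2B 41.1 ± 2.52. The shared subunits lay between 25.5 ± 4.65 for POLR2F and 47.8 ± 0.716 for POLR2E. In bulk RNA, fewer transcripts per cell and fewer cells with transcripts cannot be told apart. Across the 8 groups, the highest group mean of POLR2A was 2.64 times the lowest, and that of POLR2B 2.20 times. For the other 8 genes this ratio ran from 1.30 (POLR2C) to 1.71 (POLR2I), and its median over the 6774 genes with a mean of at least 20 CPM was 1.66. Of those genes, 11.9% had a higher ratio than POLR2A. The lowest group of POLR2A was DMSO, against which it was chosen for its rise, so that this place is not independent of that choice. In CPM, not per length, POLR2A took 12.9% ± 0.691 of the summed CPM of the 10 genes in DMSO, 24.2% ± 0.36 with ABBV-744 at 500 nM and 26.4% ± 6.07 with ABBV-075.

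POLR2A (chromosome 17, 7484366 to 7514616 on the + strand, GRCh38) encodes the largest subunit, which carries the CTD. In the 3 DMSO libraries it was at 111.2, 98.1 and 93.2 CPM, from 391 to 442 counts. It was at 185.5, 193.9 and 202.0 CPM with ABBV-744 at 50 nM, at 226.8, 247.0 and 239.6 at 500 nM, and at 181.2, 278.2 and 338.9 with ABBV-075. Each inhibitor library without IFNg was above each DMSO library, and the ABBV-075 libraries were the most spread of any group. IFNg alone gave 98.5, 120.4 and 138.2 CPM, and IFNg with ABBV-075 gave 209.1, 210.2 and 212.8. IFNg with ABBV-744 gave 109.7, 125.7 and 86.8 CPM at 50 nM and 162.8, 178.0 and 129.8 at 500 nM. The libraries of IFNg with ABBV-744 at 50 nM therefore overlapped those of IFNg alone, whereas those of IFNg with ABBV-075 did not. In order of the group means DMSO was the lowest, and IFNg with ABBV-744 at 50 nM, IFNg and IFNg with ABBV-744 at 500 nM each overlapped the group below. The means of ABBV-744 at 50 nM, IFNg with ABBV-075 and ABBV-744 at 500 nM were each apart from the group below, and the ABBV-075 group overlapped that of ABBV-744 at 500 nM.

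POLR2B (chromosome 4, 56977722 to 57031158 on the + strand, GRCh38) encodes the second-largest subunit, which forms the active site together with POLR2A. It was at 149.6, 150.3 and 166.5 CPM in DMSO and at 159.3, 145.8 and 139.3 with IFNg. With ABBV-744 it was at 135.1, 86.4 and 119.4 CPM at 50 nM and at 130.0, 105.7 and 145.8 at 500 nM. All 6 of these libraries were below the lowest DMSO library, opposite to POLR2A. With ABBV-075 it was at 236.4, 187.8 and 157.0 CPM, and the last of these lay within the DMSO range. With IFNg it was at 219.8, 199.9 and 187.7 CPM with ABBV-075, at 248.8, 243.8 and 256.7 with ABBV-744 at 50 nM and at 246.4, 210.0 and 197.1 at 500 nM. These 9 libraries were all above the 3 of IFNg alone. The ratio of POLR2A to POLR2B, in CPM, ran from 0.56 to 0.74 in DMSO, from 1.37 to 2.34 with ABBV-744, and from 0.34 to 0.52 with IFNg and ABBV-744 at 50 nM.

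POLR2H, a subunit shared by all 3 nuclear RNA polymerases, was at 54.15, 53.1 and 51.0 CPM in DMSO. It was at 70.7, 71.2 and 81.2 CPM with ABBV-075, at 65.3, 65.4 and 65.7 with ABBV-744 at 50 nM and at 62.8, 71.1 and 68.2 at 500 nM. All 9 libraries were above the DMSO libraries. With IFNg it was at 70.1, 55.8 and 57.9 CPM alone, at 75.8, 75.3 and 67.8 with ABBV-075, at 49.4, 51.1 and 57.7 with ABBV-744 at 50 nM and at 56.9, 58.4 and 63.0 at 500 nM. Only the range with ABBV-744 at 50 nM reached below that of IFNg alone, and all 3 combined groups overlapped it. POLR2E, another shared subunit, was at 138.9, 135.4 and 135.2 CPM in DMSO and at 163.7, 197.3 and 143.2 with ABBV-744 at 50 nM. It was at 138.9, 143.5 and 136.5 CPM with IFNg and at 109.5, 103.1 and 104.7 with IFNg and ABBV-744 at 50 nM, so that it was higher than its control in one setting and lower in the other. In the last setting POLR2G, a stalk subunit, was at 31.6, 33.3 and 34.3 CPM against 44.2, 49.6 and 34.1 with IFNg, and these ranges overlapped. POLR2I, a small subunit with roles in start site choice and proofreading, was at 27.3, 27.8 and 31.9 CPM with IFNg and at 16.9, 19.3 and 14.8 with IFNg and ABBV-075. Its ranges in these groups did not overlap. POLR2C ranged from 130.7 to 197.9 CPM over all 24 libraries, POLR2D from 39.8 to 60.2, POLR2F from 37.9 to 63.8 and POLR2K from 18.5 to 42.3.

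To ask whether the other subunits followed POLR2A with ABBV-744, the remaining 9 genes were tested against DMSO with edgeR's quasi-likelihood test and Benjamini-Hochberg adjustment over all genes tested, and a gene was counted as changed at an adjusted p of at most 0.05. The mean of POLR2A was 1.94 times that of DMSO at 50 nM and 2.37 times at 500 nM, on the fitted scale (log2 fold change 0.96 and 1.25). At 50 nM, 2 of the 9 other genes rose, POLR2E (log2 fold change 0.32 ± 0.11 SE, adjusted p = 0.0413) and POLR2H (0.33 ± 0.11, adjusted p = 0.0439), where 8.81% of 11116 genes rose. POLR2B fell by 0.44 ± 0.12 on the log2 scale (adjusted p = 0.0108), where 10.1% of genes fell. At 500 nM, POLR2H rose by 0.36 ± 0.11 (adjusted p = 0.0311), where 7.48% of 11124 genes rose and 7.8% fell. POLR2B was at -0.28 ± 0.10 (adjusted p = 0.0631). The median log2 fold change of the 9 genes was 0.23 at 50 nM and 0.25 at 500 nM, against 0.00 over all genes at both doses. The calls of POLR2E and POLR2H were lost in the fit by DESeq2 (adjusted p = 0.0701 and 0.107 at 50 nM, 0.0794 for POLR2H at 500 nM) and after GC correction (0.549, 0.576 and 0.102). They were also lost in at least 4 of the 6 fits with a library left out. That of POLR2B was lost without DMSO replicate 3 (-0.39, adjusted p = 0.0783). After GC correction POLR2B was at -0.25 ± 0.09 at 50 nM (adjusted p = 0.0724), and POLR2D and POLR2K were past the threshold at 500 nM (0.33 and 0.45, adjusted p = 0.0213 and 0.015). In these libraries, genes of low GC content had a median log2 fold change of -0.25 at 50 nM and genes of high GC content 0.23.

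ABBV-075 was compared with DMSO as the broader inhibitor at the lower dose. The fitted level of POLR2A was 2.60 times that of DMSO (log2 fold change 1.38). The DMSO libraries in this comparison are the same as those on which POLR2A was chosen, so that its value is a description without a test. POLR2H rose by 0.47 ± 0.13 SE (adjusted p = 0.0121, edgeR) and POLR2D by 0.41 ± 0.13 (adjusted p = 0.0261), where 19.8% of 11244 genes rose. The other 7 did not pass the test, with log2 fold changes from -0.30 (POLR2I) to 0.30 (POLR2B), and 19.6% of all genes fell. The ABBV-075 libraries 1 and 3 differed more from each other than any other replicates, and POLR2A was at 1.60 without replicate 1 and at 1.16 without replicate 3. Without replicate 3, 6 of the 10 genes were past the threshold, with POLR2A counted, and so were 26.4% of 11462 genes as higher and 25.9% as lower. The call of POLR2D was lost with DESeq2 (0.43, adjusted p = 0.0525), with a replicate block (0.41, adjusted p = 0.065) and in 4 of 6 fits with a library left out (adjusted p from 0.0597 to 0.117), and that of POLR2H without DMSO replicate 2 or 3 (0.0517 and 0.0625).

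IFNg alone was compared with DMSO, and the edgeR test called 0 of the 10 genes, where 2.76% of 11217 genes rose and 0.695% fell. At an unadjusted p under 0.05 there were 2, POLR2D (log2 fold change 0.33 ± 0.12 SE) and POLR2A (0.24 ± 0.10), as were 14.1% of all genes tested, and DESeq2 called 0. Without IFNg replicate 1, POLR2A was at 0.36 with an adjusted p of 0.0161. The DMSO libraries here are those on which POLR2A was chosen, so that its values are not independent of that choice. After GC correction POLR2D was at 0.35 with an adjusted p of 0.0398.

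With IFNg, each inhibitor was compared with IFNg alone, in libraries that had no part in the contrast against DMSO. Whether the choice of POLR2A also looked at these libraries is not recorded. ABBV-075 raised POLR2A 1.76-fold (log2 fold change 0.82 ± 0.10 SE, adjusted p = 1.7e-08, edgeR) and POLR2B 1.36-fold (0.44 ± 0.10, adjusted p = 0.000148). POLR2I fell by 0.77 ± 0.17 on the log2 scale (adjusted p = 0.000188), POLR2G by 0.43 ± 0.15 (0.0142) and POLR2C by 0.22 ± 0.09 (0.0464). These 2 genes that rose and 3 that fell compare with 28.2% and 28.4% of 11187 genes. The calls of POLR2A, POLR2B and POLR2I held in every alternative fit. After GC correction POLR2C was at 0.04 and POLR2G at -0.17 (adjusted p = 0.663 and 0.267), and POLR2H and POLR2K were past the threshold, at 0.42 and -0.71 (0.000591 and 4.34e-05).

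With IFNg and ABBV-744 at 50 nM, POLR2A was at -0.13 ± 0.11 (adjusted p = 0.367, 95% interval -0.36 to 0.11). POLR2B rose 1.71-fold (0.77 ± 0.08, adjusted p = 2.06e-09) and POLR2K, a small zinc-binding shared subunit, rose by 0.41 ± 0.17 (0.0377). POLR2E fell by 0.38 ± 0.09 on the log2 scale (adjusted p = 0.000536), POLR2F by 0.31 ± 0.11 (0.0216), POLR2G by 0.35 ± 0.14 (0.0327) and POLR2I by 0.55 ± 0.15 (0.00302). These 2 genes that rose and 4 that fell compare with 27.4% and 24.3% of 11150 genes. After GC correction POLR2B was still higher (0.41 ± 0.07, adjusted p = 1.53e-05), POLR2K turned to -0.55 ± 0.15 (0.00516), and none of the 4 that had fallen passed the test (adjusted p from 0.233 to 0.895). POLR2A was then at 0.21 ± 0.10 (0.111). With a correction for length in place of GC content, POLR2A was past the threshold as lower (-0.305 ± 0.111, adjusted p = 0.0213). In this comparison the median log2 fold change was 0.53 for genes of low and -0.33 for genes of high GC content. The longest transcript of POLR2B has 41.9% GC and that of POLR2K 35.2%, whereas the others have 45.5% to 60.9%.

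With IFNg and ABBV-744 at 500 nM, POLR2A rose 1.30-fold (0.38 ± 0.11, adjusted p = 0.00637) and POLR2B 1.45-fold (0.54 ± 0.10, adjusted p = 3.19e-05). POLR2C fell by 0.31 ± 0.09 on the log2 scale (0.00744), POLR2E by 0.29 ± 0.10 (0.0155) and POLR2G by 0.51 ± 0.15 (0.00474). These 2 genes that rose and 3 that fell compare with 22.9% and 22.8% of 11091 genes. The call of POLR2A was lost without IFNg replicate 1 (0.27, adjusted p = 0.0572) or without the treated replicate 2 (0.28, adjusted p = 0.0925), and after GC correction it was larger (0.68 ± 0.10, 2.55e-06). The 3 lower genes did not pass the test after GC correction (adjusted p from 0.127 to 0.701), and POLR2F and POLR2K did, at 0.27 and -0.51.

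**Figure D2:**
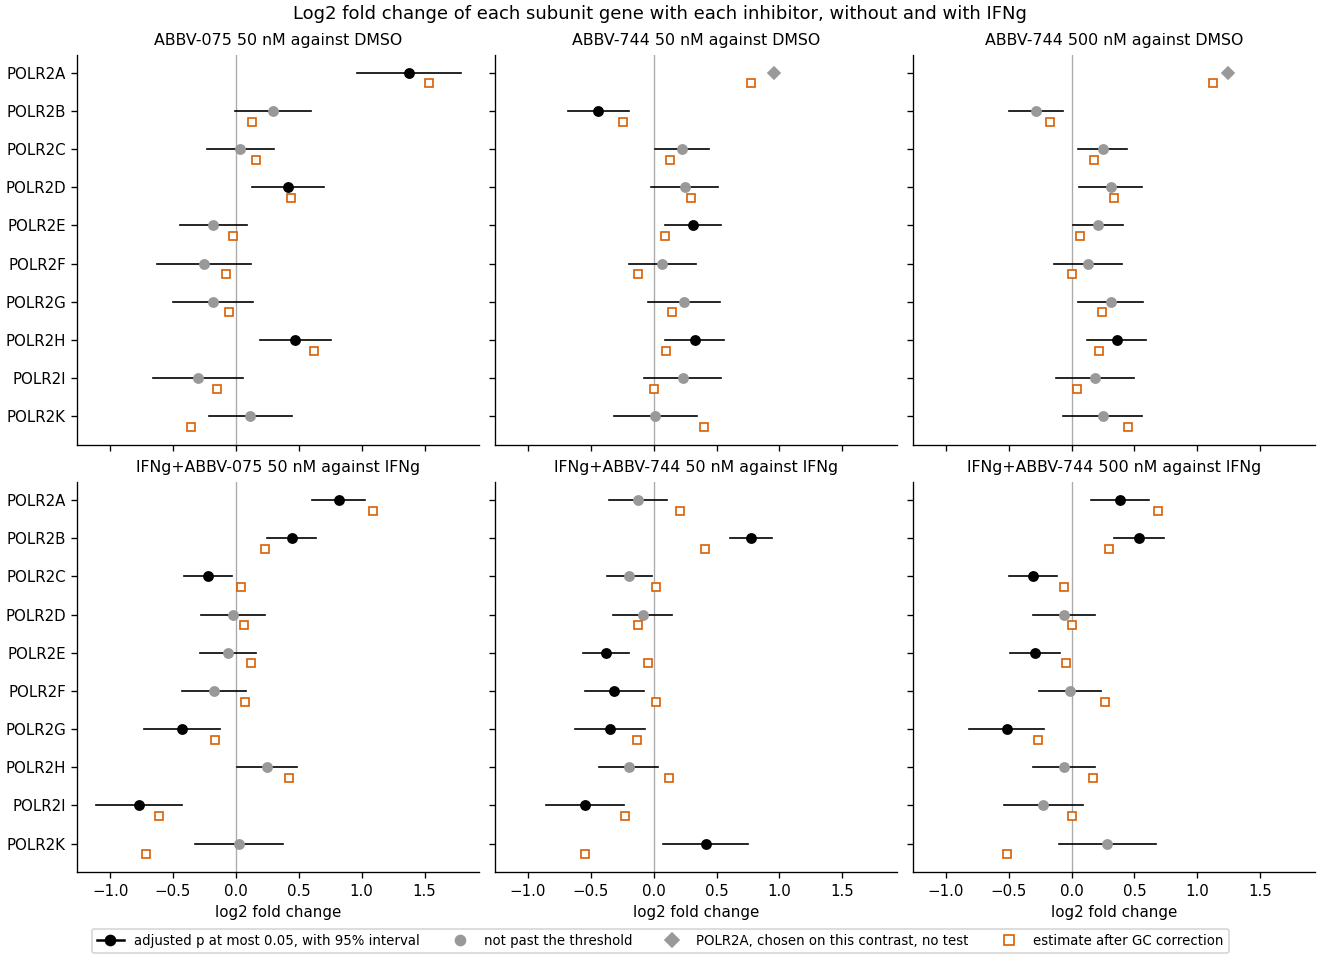
Log2 fold change (horizontal axis) of each subunit gene (vertical axis) with each inhibitor, against DMSO in the upper row and against IFNg in the lower row. Black points passed the test, grey points did not, lines are 95% intervals, diamonds are untested values of POLR2A and open squares are the estimates after GC correction. POLR2A, on whose rise with ABBV-744 the genes were chosen, was at 1.38 with ABBV-075 in the upper row. That value is drawn as a black point but is a description without a test, because it uses the DMSO libraries of that choice. In the lower panels POLR2B was at 0.44, 0.77 and 0.54.

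Whether IFNg altered the effect of an inhibitor was tested as an interaction over 4 groups, with values given as the log2 effect with IFNg minus the effect without it. For ABBV-075 the edgeR test called 0 of the 10 genes, where 0.0173% of 11530 genes were called higher and 0.0173% lower. At an unadjusted p under 0.05 there were 3, POLR2A (-0.58 ± 0.24), POLR2D (-0.46 ± 0.18) and POLR2I (-0.49 ± 0.22), as were 6.72% of all genes tested, and DESeq2 called 0. Without ABBV-075 replicate 1, POLR2A was at -0.79 with an adjusted p of 0.0143. This interaction also uses the DMSO libraries on which POLR2A was chosen, so that its values are not independent of that choice. For ABBV-744 at 50 nM, POLR2A was at -1.11, untested, and 7 of the 9 others were called. POLR2B was higher with IFNg (1.18 ± 0.15, adjusted p = 3.16e-07), where 25.0% of 11451 genes were called higher. POLR2C, POLR2E, POLR2F, POLR2G, POLR2H and POLR2I were lower, from -0.41 to -0.81 (adjusted p from 8.04e-05 to 0.0438), where 26.5% of genes were called lower. For ABBV-744 at 500 nM, POLR2A was at -0.84, untested. POLR2B was higher (0.84 ± 0.15, adjusted p = 4.64e-05, with 18.5% of 11428 genes) and POLR2C, POLR2E and POLR2G were lower (-0.53, -0.48 and -0.80, adjusted p from 0.0015 to 0.00554, with 15.0% of genes). After GC correction, POLR2B was at 0.67 and 0.48 for 50 and 500 nM (adjusted p = 3.48e-05 and 0.00159), and of the lower genes only POLR2G at 500 nM passed the test (-0.51 ± 0.17, 0.035). POLR2K, uncalled before it (0.37 and 0.06), was then at -0.95 at both doses (adjusted p = 0.00107 and 0.00117). The median interaction of all genes was -0.14 at 50 nM and -0.09 at 500 nM.

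The doses of ABBV-744 were compared directly. Without IFNg, both doses belong to the contrast on which POLR2A was chosen, and its log2 difference of 0.29 between 500 and 50 nM is a description without a test. The edgeR test called 0 of the other 9 genes, where 0.0% of 10967 genes were called higher and 0.0274% lower. There was also 0 of the 9 at an unadjusted p under 0.05, as were 5.77% of all genes tested, and DESeq2 called 0. With IFNg, POLR2A was 1.49-fold higher at 500 nM (0.57 ± 0.11, adjusted p = 0.00128), the only one of the 10 that passed, where 1.41% of 11022 genes rose and 0.29% fell. This call was lost without the 500 nM replicate 2 (0.47, adjusted p = 0.0829) and with all 24 libraries in the fit (0.55, adjusted p = 0.258).

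The inhibitors were compared at the matched dose of 50 nM, in 2 pairs of groups, although their times are not given. Without IFNg, POLR2B was 1.70-fold higher with ABBV-075 (0.76 ± 0.19, adjusted p = 0.0101), where 21.4% of 10992 genes were higher. POLR2E and POLR2I were lower, at -0.47 ± 0.15 and -0.51 ± 0.17 (adjusted p = 0.029 and 0.0363), where 19.4% of genes were lower. The ABBV-744 libraries are among those on which POLR2A was chosen, and its difference is given without a test, at 0.44, and at 0.67 without ABBV-075 replicate 1. With IFNg, POLR2A was 2.03-fold higher with ABBV-075 (1.02 ± 0.10, adjusted p = 2.42e-11), POLR2H 1.43-fold (0.52 ± 0.11, 0.000208) and POLR2E 1.31-fold (0.39 ± 0.11, 0.00358), where 16.7% of 11126 genes were higher. POLR2B was lower (-0.25 ± 0.08, adjusted p = 0.0154), where 17.0% of genes were lower. After GC correction POLR2A was at 0.78 without IFNg, untested, and at 0.88 with it (adjusted p = 2.36e-13), and POLR2B at 0.40 and -0.16 (0.016 and 0.0614). POLR2E and POLR2I without IFNg and POLR2E with it were no longer called (0.466, 0.582 and 0.0922), and POLR2H and POLR2K without IFNg were, at 0.54 and -0.74 (0.00148 and 0.00422).

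The level of several subunits moved with the GC balance of the libraries. In the 11 libraries whose balance lay below that of all DMSO libraries, POLR2B was at 187.7 to 256.7 CPM, in the 6 within the DMSO range at 130.0 to 166.5, and in the 7 above it at 86.4 to 145.8. POLR2E ran the other way, with medians of 111.5, 138.9 and 147.8 CPM. These sets follow the treatments. The first holds all libraries of IFNg with an inhibitor, and ABBV-075 replicates 1 and 2. The second holds all DMSO libraries, ABBV-075 replicate 3, ABBV-744 500 nM replicate 1 and IFNg replicate 1. The third holds all of ABBV-744 at 50 nM, and replicates 2 and 3 of ABBV-744 at 500 nM and of IFNg. The GC balance and the treatment therefore cannot be told apart here. POLR2A had medians of 178.0, 104.9 and 193.9 CPM in these sets, of which the second holds the DMSO libraries. Its ABBV-075 library in the second set had 338.9 CPM. The libraries of IFNg with ABBV-744 at 50 nM, where POLR2A was near its control, had a balance from -0.72 to -0.65, and those of IFNg with ABBV-075 from -0.62 to -0.19. Whether the GC balance is a property of the cells or of the libraries was not tested.

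**Figure D3:**
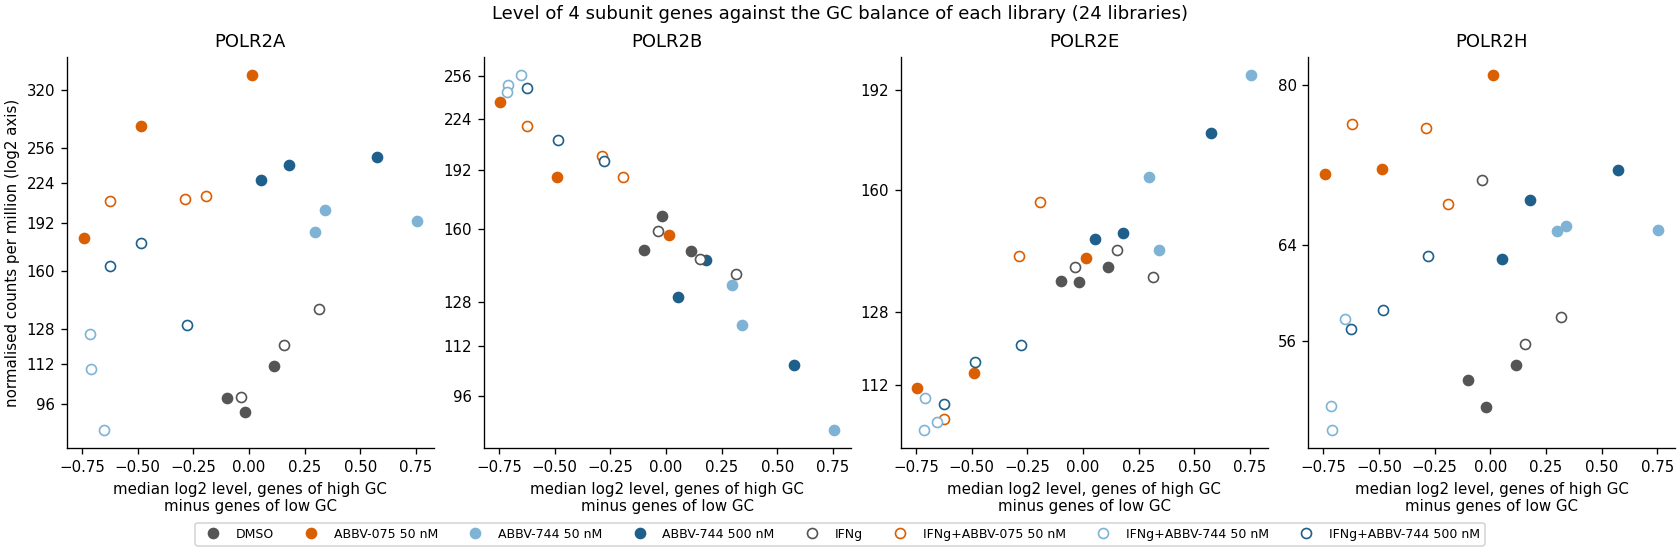
Normalised CPM of POLR2A, POLR2B, POLR2E and POLR2H (vertical axes, log2 scale) against the GC balance of each library (horizontal axis: median log2 level of genes of high GC content minus that of genes of low GC content, relative to DMSO). Each point is 1 of 24 libraries and open points have IFNg. POLR2B ran from 256.7 CPM at a balance of -0.65 to 86.4 CPM at 0.75, where POLR2E was highest (197.3 CPM). POLR2A was at 93.2 to 111.2 CPM in DMSO and, as a description without a test, at 226.8 in an ABBV-744 500 nM library. The GC balance went with the treatment groups.

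Other Pol II genes in the tables were treated as a comparison. POLR2J, the partner of POLR2C, was called with ABBV-744 at 500 nM against DMSO (0.37 ± 0.13, adjusted p = 0.0468). POLR2L, a shared subunit, fell by 0.53 ± 0.14 on the log2 scale with IFNg and ABBV-744 at 50 nM against IFNg (adjusted p = 0.00205), and with IFNg it was 1.80-fold higher with ABBV-075 than with ABBV-744 at 50 nM (0.85 ± 0.15, 1.23e-05). POLR2M, a protein that binds Pol II, had only 326 counts in all 24 libraries and shares its locus with GCOM1, so that its values are uncertain. It was 3.19-fold higher with IFNg and ABBV-075 than with IFNg (1.67 ± 0.36, adjusted p = 0.000146). The copies POLR2J2, POLR2J3 and POLR2J4 had 31, 304 and 680 counts and are near-identical in part to POLR2J, so that reads may be split among them. POLR2E and POLR2I overlap genes on the opposite strand, and their counts on the strand of the gene, which are those used here, were above those of the unstranded count (11481 against 10703, and 2037 against 1715).

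Lists of related genes gave the wider setting, without a correction for GC content. RNA polymerase I has 6 specific subunits in the list, and with IFNg and ABBV-075 against IFNg 5 of them fell and 1 rose (median log2 fold change -0.60), where 28.4% of all genes fell and 28.2% rose. With ABBV-075 against DMSO 3 fell and 1 rose (-0.36), where 19.6% of all genes fell and 19.8% rose. With ABBV-744 at 500 nM POLR1A rose by 0.43 ± 0.13 (adjusted p = 0.0277) and POLR1B fell by 0.53 ± 0.13 on the log2 scale (adjusted p = 0.00392). The pair of subunits shared by polymerases I and III, POLR1C and POLR1D, had medians of -0.40, -0.12 and -0.06 with ABBV-075 and the doses of ABBV-744. Of the 11 polymerase III subunits, 4 fell with IFNg and ABBV-075 (median -0.30), and 5 fell and 2 rose with IFNg and ABBV-744 at 50 nM (median -0.24), where 24.3% of all genes fell and 27.4% rose. In ABBV-744 at 500 nM against DMSO their highest and lowest values were 0.32 (POLR3GL) and -0.65 (POLR3G), neither past the threshold. Medians over all genes lay between -0.03 and 0.03 in these comparisons.

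The general transcription factors, which place Pol II at promoters, had 18 listed and 17 tested genes. With IFNg and ABBV-744 at 50 nM 9 of them rose (median 0.52), with IFNg and ABBV-075 8 rose and 1 fell (median 0.32), and with ABBV-075 against DMSO 5 rose and 1 fell (median 0.28). Of all genes, 27.4%, 28.2% and 19.8% rose in these comparisons and 24.3%, 28.4% and 19.6% fell. Genes of low GC content had medians of 0.53, 0.36 and 0.28 in the same comparisons, and genes of high GC content -0.33, -0.18 and -0.15. The lists were not corrected for GC content, and whether it bears on their medians was not tested. In ABBV-744 at 500 nM against DMSO the general transcription factors ran from -0.68 (GTF2F2) to 0.36 (GTF2B), with neither past the threshold. There, 7.48% of all genes rose and 7.8% fell. Of 13 assembly and import factors, which build Pol II in the cytoplasm, RPAP1 rose in that comparison (0.79 ± 0.18, adjusted p = 0.00255) and RUVBL1 fell by 1.32 ± 0.28 on the log2 scale (adjusted p = 0.00119). Of 18 CTD kinases, cyclins and phosphatases, CCNK rose (0.65 ± 0.21, adjusted p = 0.0311) and CDK8 was lowest (-0.44, adjusted p = 0.156). Against the same 7.48% and 7.8% of all genes, of 28 tested pausing and elongation factors 3 rose and 1 fell, with SUPT5H at 0.60 (adjusted p = 0.0723) and TCEA2 at -0.61 (0.126) at the ends. Of 32 Mediator subunits 4 rose and 1 fell, with MED19 at 0.74 ± 0.18 (adjusted p = 0.0041) and CDK19 at -0.75 ± 0.14 (0.000321). With ABBV-075 against DMSO the same lists had 4 higher and 3 lower (assembly), 6 and 3 (CTD), 8 and 3 (elongation), and 7 and 4 (Mediator), beside 19.8% and 19.6% of all genes.

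**Figure D4:**
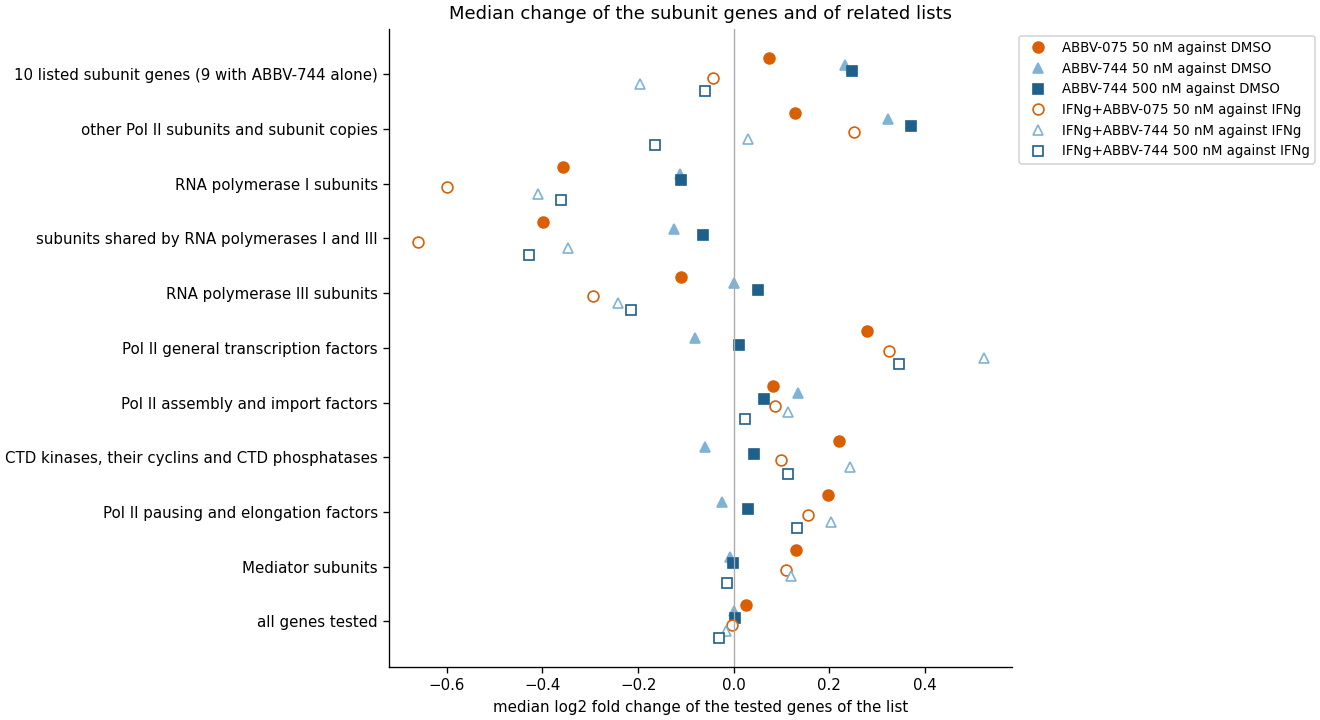
Median log2 fold change (horizontal axis) of the tested genes of each list (vertical axis) with each inhibitor, against DMSO (filled) or against IFNg (open). The median of the subunit genes was 0.23 and 0.25 with ABBV-744 alone, over the 9 genes without POLR2A, and over all 10 it was -0.20 with IFNg and ABBV-744 at 50 nM, and RNA polymerase I subunits had medians from -0.60 to -0.11.

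The genes whose 8 group means of log2 CPM were most like those of POLR2A, among the 9384 genes whose log2 CPM averaged 3 or more, were PPL (Pearson r = 0.9974), HIST1H2BC (0.9936), HIST1H4C (0.9798), TBC1D24 (0.9797) and SGSH (0.9781). PPL, a plakin of cell junctions, went from 6.51 CPM in DMSO to 14.9 with ABBV-075, 11.7 and 14.1 with ABBV-744 at 50 and 500 nM and back to 6.41 with IFNg and ABBV-744 at 50 nM. The histone gene HIST1H2BC went from 946.0 to 1533, 1245, 1399 and 957.3 CPM in the same groups. Among the other subunits POLR2H was the most like POLR2A (r = 0.929, place 85), then POLR2D (0.6631, place 1166), and POLR2B was at -0.2408 (place 6417). HEXIM1 was at 0.8675 (place 295). These are descriptions over 8 group means that share their libraries.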

How the data were processed

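Total RNA of HepG2 cells was sequenced in 24 libraries. The authors trimmed reads with Trimmomatic (0.33 in the submitters' processing notes), aligned them to GRCh38 with STAR 2.7.1 and deposited 1 table of raw counts per library. The annotation used for counting is not given in the sources used here. The layout is that of STAR gene counts, and the values come from its sense-strand column (98.3% to 98.5% of the stranded counts). Multimapping reads, 56.0% to 69.4% of all reads, and reads on no feature, 14.8% to 25.3%, stayed out of library sizes and tests.

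Counts were tested with edgeR 4.0.16 (R 4.3.3) by the quasi-likelihood test after filterByExpr and TMM normalisation, on the libraries of the groups compared, with Benjamini-Hochberg adjustment over all genes tested and a threshold of 0.05. Standard errors were derived from the fitted F statistic. CPM values were normalised over all 24 libraries. The 11 comparisons of 2 groups, 3 interactions and their alternatives were recomputed with DESeq2 1.42.0, other normalisations, filters, a GC or length correction (lowess, span 0.3), a replicate block and each library left out. GC content and length came from GENCODE 44, matched for 23161 symbols directly and 1370 through synonyms, with 1944 unmatched. The fits were tested on simulated data.

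The genes and lists were chosen with earlier results of these data known. Named were all 10 subunit genes, POLR2J, POLR2L and copies, the highest and lowest gene of each list with ABBV-744 at 500 nM against DMSO, the 5 genes most like POLR2A, and HEXIM1 and IRF1 as checks of the labels. Replicates differed by more than sampling noise (chi-square per gene 1.66 to 16.6).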

Additional observations from a re-analysis of the deposited data

Results flagged for a closer look

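The effect of ABBV-744 differed between cells with and without IFNg for several subunit genes, by the interaction test in edgeR with adjustment over all genes. At 50 nM the interaction, as a log2 difference, was 1.18 for POLR2B, -0.45 for POLR2C, -0.72 for POLR2E, -0.41 for POLR2F, -0.615 for POLR2G, -0.55 for POLR2H and -0.81 for POLR2I. At 500 nM it was 0.84 for POLR2B, -0.53 for POLR2C, -0.48 for POLR2E and -0.80 for POLR2G. Of all genes, 25.0% were called higher and 26.5% lower at 50 nM, and 18.5% and 15.0% at 500 nM. The GC balance of the libraries moved with these contrasts, with a median interaction of 0.745 for genes of low and -0.59 for genes of high GC content at 50 nM, and of 0.53 and -0.36 at 500 nM. After GC correction POLR2B at both doses and POLR2G at 500 nM were still past the threshold. The shares of all genes were then 9.38% higher and 11.1% lower at 50 nM, and 7.59% and 9.19% at 500 nM.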

How the results depend on the processing

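Of 42 calls of subunit genes, 12 held in every alternative and 16 under GC correction. POLR2A with ABBV-075 against DMSO, described above without a test, is counted in each of these numbers. Precision is limited by 3 libraries a group and 2703 to 3846 counts on the 10 genes in a library. The numbers of genes called are given with the comparison. For ABBV-744 at 50 nM against DMSO (3 called) there was 1 with DESeq2, library size only, all 24 libraries or a replicate block, and 0 with GC correction, alone or with the block. At 500 nM (1 called) there were 0 with DESeq2 or the replicate block, 2 without a filter on low counts or with GC correction, alone or with the block, and 3 with length correction. For IFNg against DMSO (0) there was 1 with GC correction. Against IFNg, ABBV-075 (5) had 3 with DESeq2, and ABBV-744 at 50 nM (6) had 3 with DESeq2 and 2 with GC correction, alone or with the block. Between the doses without IFNg (0) there was 1 with the replicate block, alone or with GC correction, which was POLR2A, chosen on these libraries, and with IFNg (1) there were 0 with all 24 libraries. ABBV-075 against ABBV-744 (3) had 1 with DESeq2 and 5 with all 24 libraries, POLR2A among the 5, and with IFNg (4) had 2 with GC correction. The interaction at 50 nM (7) had 3 with library size only and 2 with GC correction, alone or with the block. The cause of these changes was not tested. With GC correction alone, 5.6% of all genes were higher and 5.18% lower for ABBV-744 at 50 nM against DMSO. The shares were 8.41% and 9.52% at 500 nM, and 3.41% and 1.13% for IFNg. Against IFNg they were 16.4% and 18.2% for ABBV-744 at 50 nM. Between the inhibitors with IFNg they were 16.3% and 18.3%, and for the interaction at 50 nM 9.38% and 11.1%. Shares for the other alternatives in this paragraph are not given here.

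With GC correction, and in brackets with the block as well, log2 values turned to 0.04 (0.038) for POLR2C with IFNg and ABBV-075, and with IFNg and ABBV-744 at 50 nM to 0.21 (0.205) for POLR2A, 0.022 (0.023) for POLR2F and -0.55 (-0.547) for POLR2K. The interactions at 50 nM turned to 0.145 (0.143) for POLR2F and 0.023 (0.026) for POLR2H.

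With a library left out, 1 to 6 genes were called for ABBV-075 against DMSO, with POLR2A counted. Beside this, 11.9% to 26.4% of all genes were higher and 13.6% to 25.9% lower. For ABBV-744 at 50 nM there were 0 to 4 (2.94% to 10.6% and 3.37% to 12.9%). At 500 nM there were 0 to 2 (3.3% to 8.78% and 3.75% to 8.89%). For IFNg there were 0 to 1 (2.08% to 3.52% and 0.299% to 1.3%). Against IFNg there were 3 to 6 for ABBV-075, 3 to 6 for ABBV-744 at 50 nM and 2 to 5 at 500 nM. There were 0 to 1 between the doses with IFNg, beside 0.528% to 2.99% of all genes higher and 0.0447% to 1.24% lower. Between the inhibitors there were 1 to 4 without IFNg (12.3% to 26.4% and 10.7% to 24.9%). With IFNg there were 2 to 5 (13.0% to 19.2% and 13.0% to 18.6%). For the interaction of ABBV-075 there were 0 to 1 (0.00855% to 0.71% and 0.0171% to 1.0%). For that of ABBV-744 at 50 nM there were 5 to 7 (22.4% to 25.0% and 22.5% to 26.4%). The untested log2 value of POLR2A with ABBV-744 ran from 0.77 to 1.025 at 50 nM and from 1.13 to 1.31 at 500 nM over the alternatives. Deviations of log2 CPM from the group mean were correlated between same-numbered libraries of the groups compared, with r from -0.18 to 0.34. In 0 of 11 comparisons did all 3 pairs exceed 0.1, so that the replicate numbers were not taken as pairs.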
